A study of Arabidopsis thaliana with 13 samples.

Results

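The effect of gaining a peptide ligand was set against the effect of losing a receptor in whole roots of Arabidopsis thaliana, probe set by probe set. CLE3 encodes a small secreted peptide of the CLE family, which is cut from a longer precursor and acts outside the cell. CLAVATA1 (CLV1) sits at the cell surface, where its leucine-rich repeats bind CLE peptides and its kinase domain signals inward. In the shoot tip this pairing restrains the stem cell pool, and in roots CLE peptides and CLV1 have been tied to lateral root growth when nitrogen is scarce.

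The contrast took the mean of lines CLE3ox 12-1 and CLE3ox 17-3 minus Col-0 (the CLE3ox effect) and subtracted clv1-15 minus Ler (the clv1-15 effect). It used all 13 of 13 arrays in the series. Lines 12-1 and 17-3 (n = 2 each) overexpress CLE3 in the Col-0 accession, with wild-type Col-0 (n = 3) as control. The mutant clv1-15 (n = 3) carries 1 allele of CLV1 in the accession Landsberg erecta, with wild-type Ler (n = 3) as control. Plants of every group were 10 days old, grown at 22 °C with 16 h light and 8 h dark on MGRL agar with 0.1 mM nitrate and 1% sucrose. The labels do not give the promoter that drives CLE3. Each effect was measured in its own accession, so a difference between ligand and receptor cannot be told apart from a difference between Col-0 and Ler. A log2 difference of effects above 0 means that a gene stood higher in CLE3ox relative to Col-0 than in clv1-15 relative to Ler. Values are log2(signal + 16), so changes of dim probe sets are understated.

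The median signal per array lay in a narrow range (189.9 to 200), and arrays of a group correlated at 0.987 to 0.993 over probe sets. A bacterial spike-in control (bioD) divided the Col-0 background: the second array of each CLE3ox line and the third Col-0 array stood above 3500, and the 10 others below. No probe set carries the name of CLE3, CLV1 or ERECTA (0), so the targeted genes could not be read by name. Of 15 root markers 2 were tested, the root hair expansins EXPA7 and EXPA18, with signals of 656 to 2107. Of 14 shoot markers 2 were tested, RCA and LHCB4.1, with signals of 307 to 1079. Both shoot markers were higher in clv1-15 than in Ler, by 0.49 and 0.43 on the log2 scale, and their differences of effects, -0.28 and -0.17, did not pass the test. The part of tissue makeup in these results was not tested, and in whole-root RNA fewer cells of a type cannot be told apart from less RNA per cell.

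In limma's moderated test over 15922 probe sets, 1785 (11.2%) differed between the effects at a Benjamini-Hochberg adjusted p under 0.05. The difference was higher in 914 (5.74%) and lower in 871 (5.47%), and 295 (1.85%) differed at least 2-fold, 128 higher and 167 lower. At an unadjusted p under 0.05 the count was 4219. With fewer arrays the count fell, to 1156 without Col-0 replicate 1 and to 979 within the lower spike-in group. The smallest difference called was 0.26 on the log2 scale, and the median SE of a difference was 0.154, against 0.105 for the CLE3ox effect and 0.113 for the clv1-15 effect. The CLE3ox effect by itself passed in 389 probe sets (2.44%), 168 higher (1.06%) and 221 lower (1.39%). The clv1-15 effect by itself passed in 2434 (15.3%), 1096 higher (6.88%) and 1338 lower (8.4%). That balance depended on the scaling, with 1132 higher and 1102 lower after quantile normalization and 1304 and 1042 after median centring. Line 17-3 differed from line 12-1 in 42 (0.264%), 35 higher (0.22%) and 7 lower (0.044%).

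Of the 1785 probe sets, the clv1-15 effect was the larger in absolute size in 1407. The estimates of the 2 effects had opposite signs in 1607. The 914 higher ones had a median CLE3ox effect of 0.18 and a median clv1-15 effect of -0.42. The 871 lower ones had medians of -0.22 and 0.44. In 1186 only the clv1-15 effect was called, in 126 only the CLE3ox effect, in 141 both, and in 332 neither. These values follow in part from the choice by the difference and are given as a description.

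**Figure D1:**
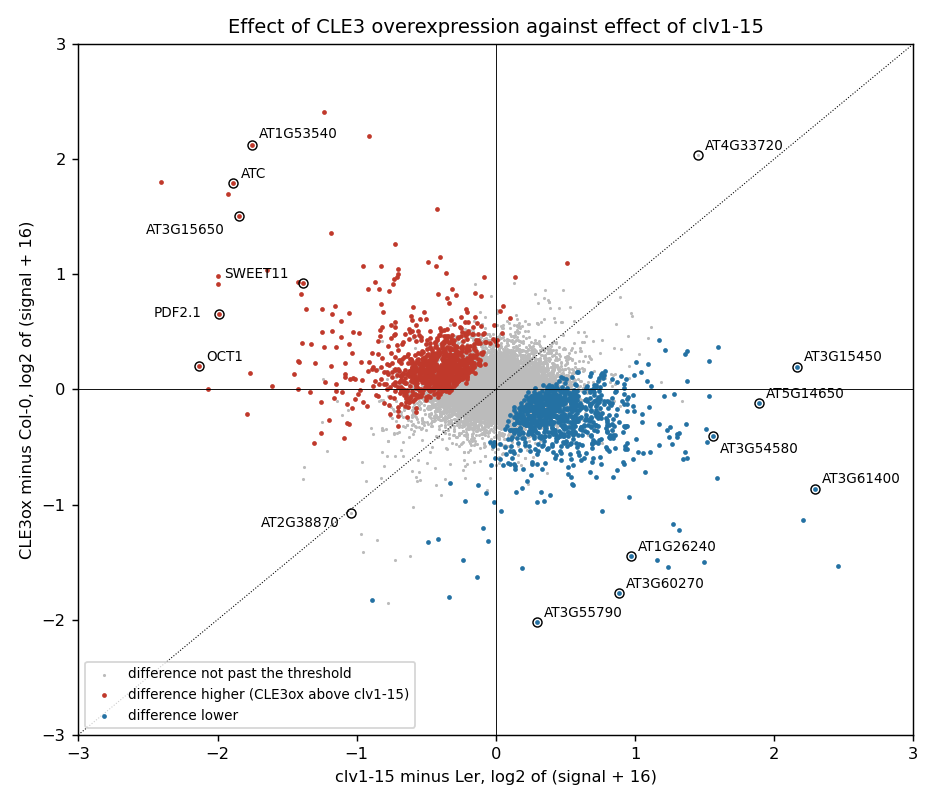
Each point is a probe set, with the clv1-15 effect (clv1-15 minus Ler) on the x axis and the CLE3ox effect (CLE3ox minus Col-0) on the y axis, both in log2 of (signal + 16). The dotted line marks equal effects, colours mark the 914 higher and 871 lower differences, and 3 probe sets lie outside the axes. The highest named differences lie at the upper left, with CLE3ox above Col-0 and clv1-15 below Ler.

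Among genes with a name, the highest differences included those of a small heat shock protein gene, a relative of the flowering regulator TERMINAL FLOWER 1 that acts as a mobile signal, and a sucrose exporter. The lowest included cell wall extensin genes and a gene of the sugar starvation response. Of the 20 named by size of difference, 10 each way, the arrays of CLE3ox and Col-0 stood apart in 14 (70%), against 14.1% of all probe sets tested. The arrays of clv1-15 and Ler stood apart in 18 (90%), against 34.6%. Both shares follow in part from the choice by size.

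AT1G53540, a small heat shock protein gene, whose products hold unfolded proteins in a soluble state, had the highest named difference. Its signal was 45.7, 68.5 and 36 in Col-0, 149.9 and 139.5 in line 12-1 and 464 and 496 in line 17-3. In the other accession it was 292, 149 and 394 in Ler and 85.7, 37.3 and 84.3 in clv1-15. CLE3ox arrays were all above Col-0 and clv1-15 arrays all below Ler, with line 17-3 above line 12-1. The CLE3ox effect was 2.12 ± 0.27 (log2 ± SE, as for all effects here) and the clv1-15 effect -1.75 ± 0.29. The difference was 3.88 ± 0.40, with an adjusted p of 1.6e-05 (limma).

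ATC (synonym centroradialis, AT2G27550) belongs to the phosphatidylethanolamine-binding family of TERMINAL FLOWER 1 and is known to move between organs and delay flowering. The Col-0 arrays read 132, 207 and 141, those of line 12-1 464 and 478 and those of line 17-3 756 and 684. Ler read 1312, 1010 and 1306 and clv1-15 366, 241 and 346. The groups did not overlap within either accession: CLE3ox was high against Col-0 and clv1-15 low against Ler. With effects of 1.79 ± 0.15 and -1.89 ± 0.16, the difference was 3.68 ± 0.22 (limma adjusted p = 6.3e-08).

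SWEET11 exports sucrose from phloem parenchyma cells towards the sieve elements in leaves. Its signal was 433, 313 and 205 in Col-0, 500.2 and 592 in line 12-1, 679 and 597 in line 17-3, 593, 483 and 522 in Ler and 162, 222 and 201 in clv1-15. Col-0 varied widely, but no array overlapped between the sides of either comparison. The CLE3ox effect was 0.92 ± 0.18, the clv1-15 effect -1.38 ± 0.19 and the difference 2.30 ± 0.26 (limma adjusted p = 3.9e-05). Of 13 loci on the phloem and mobile signal list 3 were tested. SWEET11 and ATC were the 2 called higher, against 5.74% of all probe sets. The third, OPS (OCTOPUS), which is needed for protophloem formation, had a difference of 0.61 that did not pass (limma adjusted p = 0.16). It passed in 1 of 28 alternatives.

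AT3G15650 followed the same order. Its signal was 224, 281 and 256 in Col-0, 469 and 709 in line 12-1, 964 and 982 in line 17-3, 835, 651 and 775 in Ler and 202, 218 and 176 in clv1-15. The signal of clv1-15 lay below every Col-0 array, and that of Ler within the range of the CLE3ox lines. Its difference of 3.35 ± 0.19 (limma adjusted p = 3e-08) came from effects of 1.51 ± 0.13 and -1.84 ± 0.14.

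Other high differences rested mainly on clv1-15. OCT1, a carrier of organic cations and carnitine, read 489.9, 462 and 415 in Col-0, 619.8 and 512 in line 12-1, 444 and 537 in line 17-3, 453, 468 and 561 in Ler and 102, 79.9 and 122 in clv1-15. Only clv1-15 stood apart: the CLE3ox effect was 0.20 ± 0.13 (limma adjusted p = 0.51), the clv1-15 effect -2.13 ± 0.14 and the difference 2.33 ± 0.19. PDF2.1, a plant defensin, a small secreted cysteine-rich protein, read 157, 145 and 134 in Ler and 38.9, 18.6 and 19.1 in clv1-15. It read 106, 118 and 129 in Col-0, 160.2 and 165 in line 12-1 and 191 and 276 in line 17-3, so both comparisons stood apart. Its difference was 2.65 ± 0.24, of which the clv1-15 effect made -1.99 ± 0.18 and the CLE3ox effect 0.66 ± 0.17 (limma adjusted p = 0.048).

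The remaining named genes at this end were AT1G52700 (difference 2.55 ± 0.28), AT1G33340 (2.35 ± 0.19), AT2G04050 (2.06 ± 0.36) and rpoA (2.02 ± 0.34). rpoA encodes the alpha subunit of the plastid's own RNA polymerase. Its arrays did not overlap in Col-0 and CLE3ox (705.5 to 848 and 1063 to 2129), nor in clv1-15 and Ler (1131 to 1418 and 1536 to 3238). Among 63 plastid-encoded genes tested it was the only one called higher, against 5.74% of all probe sets. The only one called lower, against 5.47%, was rbcL, the large subunit of Rubisco, with a difference of -0.52. The call of rbcL was lost in 5 of 29 alternatives, with line 12-1 alone, in both spike-in settings, without clv1-15 replicate 2 and without Col-0 replicate 1 (adjusted p of 0.015 to 0.13). The median difference of these 63 was 0.05, near that of all probe sets, 0.03.

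The differences furthest from 0 belonged to probe sets that have no gene name in the platform's table and were singled out after their values were seen. Probe set 262728_at read 1585, 1617 and 1503 in Col-0, 2341 and 2372 in line 12-1, 2843 and 2482 in line 17-3, 1647, 1683 and 1807 in Ler and 1.6, 6 and 5.6 in clv1-15. It was near 0 in clv1-15 alone and above Col-0 in both CLE3ox lines, for a difference of 7.08 ± 0.13 (limma adjusted p = 5.5e-15). Its clv1-15 signals lay below the pseudocount, which sets the size of the difference: it was 5.35 to 9.11 over the alternatives, and all of them kept the call. Probe set 260795_at read 31, 27.1 and 1.2 in Col-0, 11179.6 and 11857 in line 12-1, 13239 and 13439 in line 17-3, 20.3, 23 and 18.8 in Ler and 88.5, 99.6 and 107 in clv1-15. It was bright in the CLE3ox lines alone and a little above Ler in clv1-15, and its difference was 6.93 ± 0.35 (limma adjusted p = 7.1e-09). Which genes they measure was not examined, so it is not known whether either of them measures CLE3 or CLV1.

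**Figure D2:**
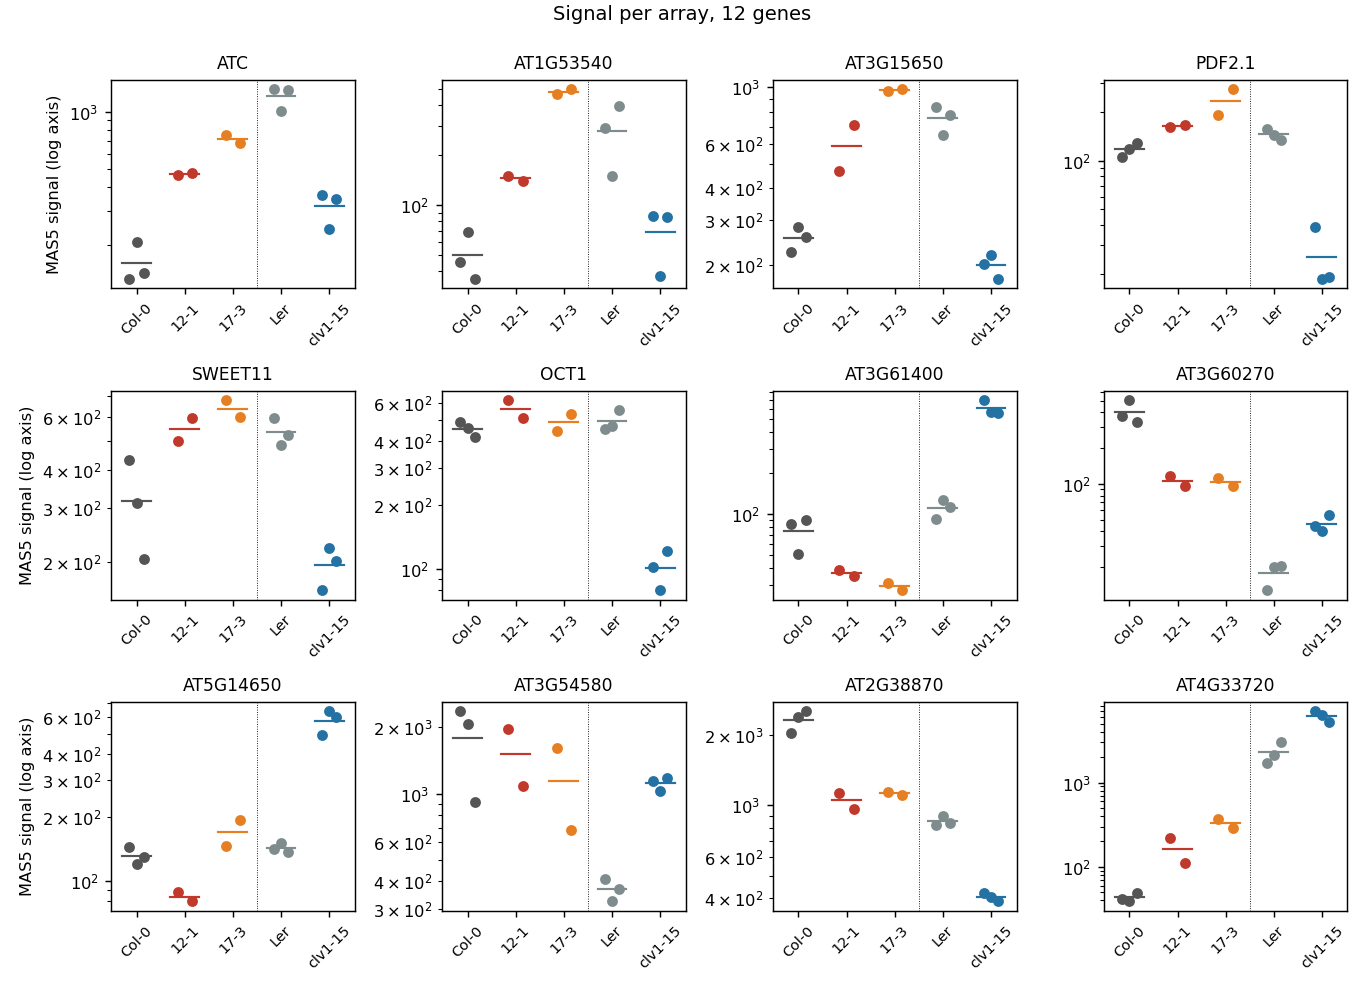
Deposited MAS5 signal (arbitrary units, log axis) of 12 genes in each array, with bars at group means; left of the dotted line stand Col-0 and CLE3ox lines 12-1 and 17-3, right of it Ler and clv1-15. In ATC, AT1G53540 and AT3G15650 the CLE3ox arrays lie above Col-0 while clv1-15 lies below Ler, and in AT2G38870 both lie below their control.

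The 8 heat shock genes with a named probe set were all tested and gave 6 higher differences and 0 lower ones, against 5.74% of all probe sets called higher. Their median difference was 1.75, with a median CLE3ox effect of 0.98 and a median clv1-15 effect of -0.715. All 6 were called higher as CLE3ox effects (1.06% of all probe sets), and 5 of them lower as clv1-15 effects (8.4%). Besides AT1G53540 they were AT1G54050 (1.99 ± 0.22), AT2G29500 (1.80 ± 0.17), AT1G52560 (1.69 ± 0.19), AT5G37670 (1.71 ± 0.21) and ATHSP22.0 (1.99 ± 0.34). All encode small heat shock proteins. AT5G51440 (0.42, limma adjusted p = 0.16) and AT4G21870 (-0.04, 0.94) did not pass.

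AT2G29500 shows the pattern of the group. Its signal was 342, 322 and 356 in Col-0, 461 and 479.6 in line 12-1, 922 and 943 in line 17-3, 387, 300.2 and 471 in Ler and 184, 202 and 219.6 in clv1-15. Line 17-3 was far above line 12-1, which was itself above every Col-0 array, and clv1-15 was below every Ler array. Its line 17-3 effect was 1.42 (limma adjusted p = 3e-05) and its line 12-1 effect 0.45 (0.29). With line 12-1 alone as CLE3ox the difference was 1.31 (limma adjusted p = 0.00062), and with line 17-3 alone 2.28 (2.4e-06). The line 12-1 effects of AT1G53540 (1.31, limma adjusted p = 0.12), AT1G54050 (0.82, 0.058) and AT1G52560 (0.37, 0.51) did not pass either. Their line 17-3 effects all passed (limma adjusted p of 2.8e-05 to 8.3e-05).

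The extensin list went the other way. Extensins are hydroxyproline-rich glycoproteins that are crosslinked into the cell wall, and several are expressed in root hairs. Of 14 with a named probe set 12 were bright enough to be tested, and 9 had a lower difference and 0 a higher one, against 5.47% of all probe sets called lower. Their median difference was -1.58, with a median CLE3ox effect of -0.37 and a median clv1-15 effect of 0.95. The clv1-15 effect was called higher in 10 of 12, against 6.88% of all probe sets, and the CLE3ox effect lower in 3 of 12, against 1.39%. Several of these genes have near-identical copies, and probe sets ending in _x_at (AT4G08410, AT5G06630, HRGP1, AT1G23720) can pick up more than 1 of them, so the 9 are not independent readings.

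AT5G19810 varied little within groups. Its signal was 292, 264 and 279 in Col-0, 245 and 232 in line 12-1, 178 and 188 in line 17-3, 76, 68.6 and 76.2 in Ler and 191, 208 and 217 in clv1-15. Both CLE3ox lines were below Col-0 and clv1-15 was far above Ler, without overlap. The difference was -1.69 ± 0.14 (limma adjusted p = 1.8e-06), from a CLE3ox effect of -0.39 ± 0.09 and a clv1-15 effect of 1.304 ± 0.10.

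AT1G26240 had the lowest difference in the list, -2.42 ± 0.32 (limma adjusted p = 0.00021). Its signal was 1386, 1641 and 909 in Col-0, 601 and 401 in line 12-1 and 612 and 293 in line 17-3, but only 20.9, 30.3 and 29.2 in Ler and 69.9, 64.7 and 67.5 in clv1-15. The groups were apart on both sides. Within Col-0 and within each line, the array of the higher spike-in group was the lowest. AT3G54580 shows this more widely, with 2361, 2065 and 916 in Col-0, 1959 and 1083 in line 12-1, 1606 and 686 in line 17-3, 409, 324 and 369 in Ler and 1138, 1025 and 1181 in clv1-15. CLE3ox and Col-0 overlapped here and only clv1-15 stood apart from Ler. The difference of AT3G54580 was -1.97 ± 0.43 over all arrays, -1.88 within the lower spike-in group and -1.65 with the CLE3ox effect from the higher one.

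Other cell wall and secreted families had calls in both directions or in fewer members. EXPA18 and EXPA7, alpha-expansins that loosen the wall of growing root hairs, had differences of -0.95 ± 0.14 (limma adjusted p = 0.00057) and -0.55 ± 0.13 (limma adjusted p = 0.01). The call of EXPA7 was lost with line 12-1 alone and within the lower spike-in group (adjusted p of 0.0044 to 0.083 over its 29 alternatives). They were the 2 called of 7 alpha-expansins, against 11.2% of all probe sets, and both are also the only tested members of the root hair list. The CLE3ox effect of neither passed (-0.27 ± 0.10 and -0.31 ± 0.09), and of the clv1-15 effects only that of EXPA18 did (0.68 ± 0.10).

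Class III peroxidases, secreted enzymes that make or break crosslinks in the wall, had 6 lower and 3 higher differences among 41 tested of 55 measured, against 5.47% and 5.74% of all probe sets, and a median of -0.08. AT4G26010 read 5104, 5081 and 5299 in Ler and 6842, 6826 and 7370.2 in clv1-15, against 7354, 7347 and 7614 in Col-0, 7051 and 6676 in line 12-1 and 5495 and 6216 in line 17-3. The clv1-15 arrays were above Ler and the CLE3ox arrays below Col-0, with line 12-1 close to Col-0. Its difference was -0.67 ± 0.09 (limma adjusted p = 0.00016). AT3G49960 (-0.76 ± 0.10) and AT1G30870 (-0.91 ± 0.13) differed in the same direction, while AT5G64120 differed in the opposite one, by 0.93 ± 0.13, with a clv1-15 effect of -1.20 ± 0.09.

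CAP proteins, secreted relatives of the defence marker PR-1, had 3 lower and 0 higher differences among 11 tested of 19 measured, against 5.47% and 5.74% of all probe sets. These were AT4G25790 (-1.29 ± 0.14), AT4G33730 (-1.17 ± 0.15) and AT4G30320 (-1.16 ± 0.16). All 3 had a called clv1-15 effect of 0.79 to 0.85, and only AT4G25790 a called CLE3ox effect (-0.50 ± 0.10).

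Berberine bridge enzyme-like oxidases, secreted flavoproteins some of which inactivate wall fragments or take part in defence metabolism, had 4 lower and 2 higher differences among 12 tested of 22 measured, against 5.47% and 5.74% of all probe sets. AT1G26380 read 1293, 1459 and 1729.7 in Col-0, 532 and 505 in line 12-1 and 527 and 427 in line 17-3. Ler read 2.7, 18 and 4 and clv1-15 6.4, 11.1 and 14.8. The CLE3ox arrays lay far below Col-0, while both groups of the Ler accession lay near the pseudocount, where a fall could not have been seen. Its difference was -1.74 ± 0.27 and its CLE3ox effect -1.55 ± 0.18. AT1G26390 and AT1G26410, which with AT1G26380 made 3 of the 4 lower ones, also read at most 18.4 in the Ler accession. Their differences were -1.25 ± 0.22 and -1.49 ± 0.27 and their CLE3ox effects -1.48 ± 0.15 and -1.63 ± 0.18. The call of AT1G26390 was lost with a pseudocount of 1 (limma adjusted p = 0.061). That of AT1G26410 was lost with the CLE3ox effect from the higher spike-in group (0.06).

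**Figure D3:**
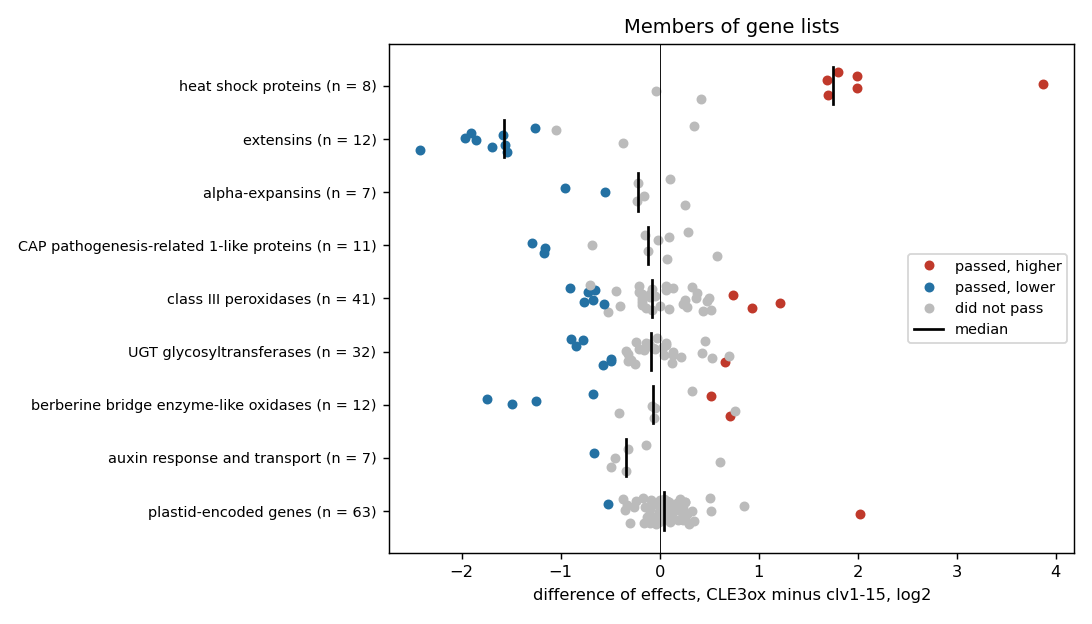
Difference of effects (log2, x axis) of each tested member of 9 gene lists, with vertical bars at list medians. Coloured points passed the test (red higher, blue lower) and grey points did not: 6 of 8 heat shock genes are red and 9 of 12 extensins blue.

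AT3G61400 had the lowest named difference. It read 83.8, 51 and 89.9 in Col-0, 38.9 and 35.2 in line 12-1, 31.1 and 27.5 in line 17-3, 91.9, 128 and 113 in Ler and 690.4, 564 and 561 in clv1-15. CLE3ox lay below Col-0 and clv1-15 above Ler, with no overlap. The CLE3ox effect was -0.86 ± 0.16, the clv1-15 effect 2.30 ± 0.17 and the difference -3.16 ± 0.23 (limma adjusted p = 6.4e-07).

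AT5G14650 was a case of clv1-15 alone. The arrays read 145, 120.4 and 129.6 in Col-0, 87.9 and 79.9 in line 12-1, 146 and 194 in line 17-3, 141, 151 and 137 in Ler and 495, 638 and 599 in clv1-15. Only clv1-15 stood apart from its control as a whole, and Col-0 lay between the CLE3ox lines. The difference was -2.01 ± 0.17 (limma adjusted p = 3.1e-06) and the CLE3ox effect -0.12 ± 0.12.

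Of 7 genes of the sugar starvation list, which are known to rise when carbon is short, 2 were tested. Both had a lower difference, against 5.47% of all probe sets. AT3G15450 read 1971, 2499.7 and 1550 in Col-0, 2292 and 1968 in line 12-1, 2272 and 2552 in line 17-3, 521, 591 and 846 in Ler and 2365, 2612 and 4034 in clv1-15. The Ler arrays were the low ones, and clv1-15 overlapped with Col-0 and line 17-3. The CLE3ox effect was 0.20 ± 0.19 and did not pass, the clv1-15 effect was 2.17 ± 0.20, and the difference was -1.97 ± 0.28 (limma adjusted p = 0.00031). AT4G27450 gave 0.07 ± 0.14, 1.37 ± 0.15 and -1.302 ± 0.21 for the same 3 quantities.

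AT3G60270 and AT3G55790 were bright in Col-0 and dim in Ler. AT3G60270 read 374, 506 and 334 in Col-0, 117 and 96.8 in line 12-1, 113 and 96.6 in line 17-3, 12.8, 20.2 and 20.4 in Ler and 44.2, 40 and 55 in clv1-15. CLE3ox stood below Col-0 and clv1-15 above Ler, for a difference of -2.66 ± 0.23 (limma adjusted p = 3.4e-06). AT3G55790 had a CLE3ox effect of -2.02 ± 0.35 and signals of 1.2 to 43.9 in the Ler accession, where 5 of 6 arrays were at or below 16. Its difference, -2.31 ± 0.51, passed over all arrays (limma adjusted p = 0.0091) and lost the call within the lower spike-in group (0.079) and with the CLE3ox effect from the higher one (0.07), in a range of 0.00019 to 0.079 over its alternatives.

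Hormone, nutrient and signalling lists were read against the 11.2% of all probe sets that were called. Of 7 auxin genes tested, WES1 (GH3.5), which conjugates auxin to amino acids, was the 1 called, with a difference of -0.66 ± 0.12 (limma adjusted p = 0.0025) and a clv1-15 effect of 0.73 ± 0.09. The differences of PUCHI (-0.49 ± 0.20), LBD29 (-0.45 ± 0.21) and LBD16 (-0.32 ± 0.16), transcription factors of lateral root formation, did not pass. As clv1-15 effects, 3 of the 7 auxin genes were called higher, against 6.88% of all probe sets. Besides WES1 these were GH3.3 (0.98, limma adjusted p = 0.0047) and PUCHI (0.47, 0.039). GH3.3 had a CLE3ox effect of 0.64 (0.098) and a difference of -0.34 (0.47), neither of which passed. Of 23 CLE and CLAVATA pathway genes 4 were tested, and none passed in the main fit (0, limma). CLE44, which encodes a peptide that keeps vascular stem cells dividing, read 130.1, 154 and 146 in Col-0, 226 and 221 in line 12-1, 326 and 344 in line 17-3, 53.1, 54.5 and 37.6 in Ler and 62.7, 67.7 and 67 in clv1-15. Both CLE3ox and clv1-15 lay above their controls, the first by 0.86 ± 0.12 (limma adjusted p = 0.00078) and the second by 0.36 ± 0.13 (0.072), and the difference was 0.51 ± 0.18 (0.074). CLE41, for the same peptide, had a difference of 0.43 ± 0.20 and POL (POLTERGEIST), a phosphatase downstream of CLV1, one of 0.15 ± 0.14. Under the alternatives the difference of CLE44 passed in 5 of 28 (limma adjusted p of 0.015 to 0.52) and that of CLE41 in 1 of 29 (0.048 to 0.47).

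F6'H1 (AT3G13610), the hydroxylase that makes the coumarin scopoletin, was the 1 called of 4 iron deficiency and coumarin genes, with a difference of -0.52 ± 0.12 and a CLE3ox effect of -0.43 ± 0.08. AT1G59740, an NPF transporter, was the 1 called of 8 of its family (-1.01 ± 0.17), with a clv1-15 effect of 0.69 ± 0.12. UGT glycosyltransferases, which attach sugars to hormones and secondary metabolites, had 6 lower and 1 higher among 32 tested of 51 measured, against 5.47% and 5.74% of all probe sets. The higher one was UGT78D2, a flavonoid glucosyltransferase, with a difference of 0.66 and a clv1-15 effect of -1.09. It lost its call in 17 of 29 alternatives, the replicate block, each line alone and no filter among them (adjusted p of 0.021 to 0.15). Among the lower ones, UGT72B3 lost its call in 7 of 28 alternatives (adjusted p up to 0.32). UGT72E2 did so in 2 of 29, and UGT71C1 and UGT71C2 in 1 of 29 each. CYP78A9, a cytochrome P450 of organ growth, had a difference of -0.76 ± 0.14 and was the 1 called of 10. The calls of WES1, F6'H1 and AT1G59740 were each lost in 1 of 29 alternatives, all of them spike-in settings (adjusted p up to 0.055, 0.081 and 0.059). Of 6 WRKY factors, 3 jacalin lectins, 2 cytokinin genes and the glutaredoxins GRXC1 and GRXC2, none (0) passed limma's test.

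Sign was then compared in the probe sets where an effect had been called on its own. Both effects passed in 176, which is 45.2% of the CLE3ox calls and 7.23% of the clv1-15 calls. Of these, 135 (0.848% of all tested) had opposite signs and 41 (0.258%) the same sign. In 57 of the 135 CLE3ox was higher and clv1-15 lower, and in 78 the reverse. In 12 of the 41 both were higher and in 29 both were lower. All 135 also passed the test of the difference, which follows from the choice, as opposite effects add up in it. Effects of the same sign partly cancel in it, and 6 of the 41 passed. The count of opposite signs was 77 without Col-0 replicate 1, 73 without Col-0 replicate 3 and 86 without line 12-1 replicate 2, and in the same fits 37, 34 and 36 had the same sign.

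No array entered both the CLE3ox and the clv1-15 effect, so the sign of one in the calls of the other was not set by the choice. Over all 15922 probe sets the estimates had opposite signs in 54.7%. In the 2434 clv1-15 calls the CLE3ox effect had the opposite sign in 61.8%. The share was 59.8% of 1484 calls below 0.5 in size, 64.4% of 820 from 0.5 to 1, 64.4% of 101 from 1 to 1.5, and 79.3% of the 29 at 1.5 or more. For those 29 the median clv1-15 effect was 1.89 in size and the median CLE3ox effect along the same direction was -0.45. Genes higher in clv1-15 had the opposite sign in 65.6% and genes lower in clv1-15 in 58.7%. In the 389 CLE3ox calls the clv1-15 effect had the opposite sign in 63%. That share did not rise with the size of the CLE3ox effect. It was 65.9% of 164 calls below 0.5, 60.3% of 174 from 0.5 to 1 and 62.7% of 51 at 1 or more.

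By line, among clv1-15 calls the sign was opposite in 60.5% for line 12-1 and 60.9% for line 17-3, and among the 130 of at least 2-fold in 68.5% and 66.9%. In probe sets called in both effects the lines differed: line 12-1 alone gave 19 of opposite and 23 of the same sign, and line 17-3 alone 175 and 51. The lines share the Col-0 arrays, so these are not independent readings, and the difference between them was not tested. Across all probe sets the CLE3ox and clv1-15 effects correlated at r = -0.16 (Spearman's rho = -0.13), and in the 176 called in both at -0.34 (-0.48). All probe sets were read on the same arrays, so the correlations are given as a description only.

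**Figure D4:**
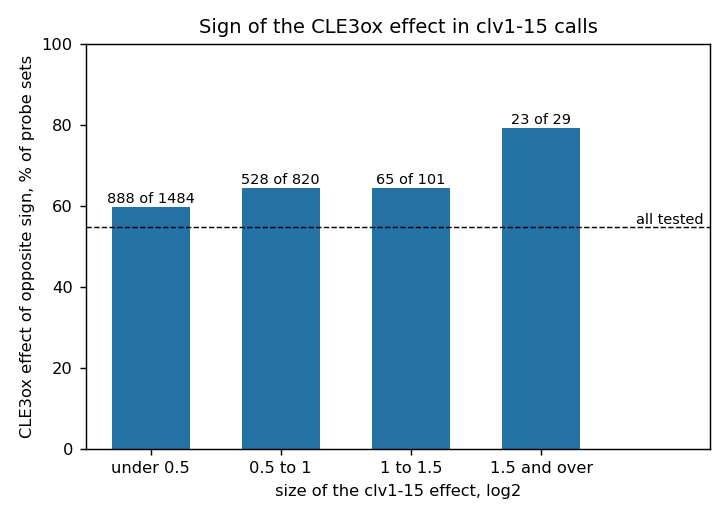
Bars give the percentage of clv1-15 calls in which the CLE3ox effect had the opposite sign, by size of the clv1-15 effect (log2 of signal + 16), with the count above each bar. The dashed line marks 54.7% for all probe sets tested, and the last bar rests on 29 probe sets.

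The same relation was read array by array. For the clv1-15 signature, the mean log2 value of the 1096 probe sets higher in clv1-15 minus that of the 1338 lower ones was taken in each Col-0 background array. Col-0 scored 0.737, 0.688 and 0.669, line 12-1 0.634 and 0.58, and line 17-3 0.562 and 0.511. Every CLE3ox array was below every Col-0 array, by -0.13 between the means of the sides, with a within-group SD of 0.04. In the arrays that chose the probe sets the gap was 1.04. The arrays of the higher spike-in group had the lowest score in each of the 3 groups, and within the lower spike-in group the gap was -0.10.

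For the CLE3ox signature, made from 168 higher and 221 lower probe sets, Ler scored 0.27, 0.277 and 0.393, and clv1-15 -0.156, -0.25 and -0.143. The groups did not overlap, and the gap was -0.50, with a within-group SD of 0.06, against 1.38 in the arrays that chose the probe sets. It was -0.885 with probe sets chosen by line 12-1 alone, and -1.02 and -0.942 with those chosen in the lower and higher spike-in groups, which called fewer. No p is given for a score over chosen probe sets.

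**Figure D5:**
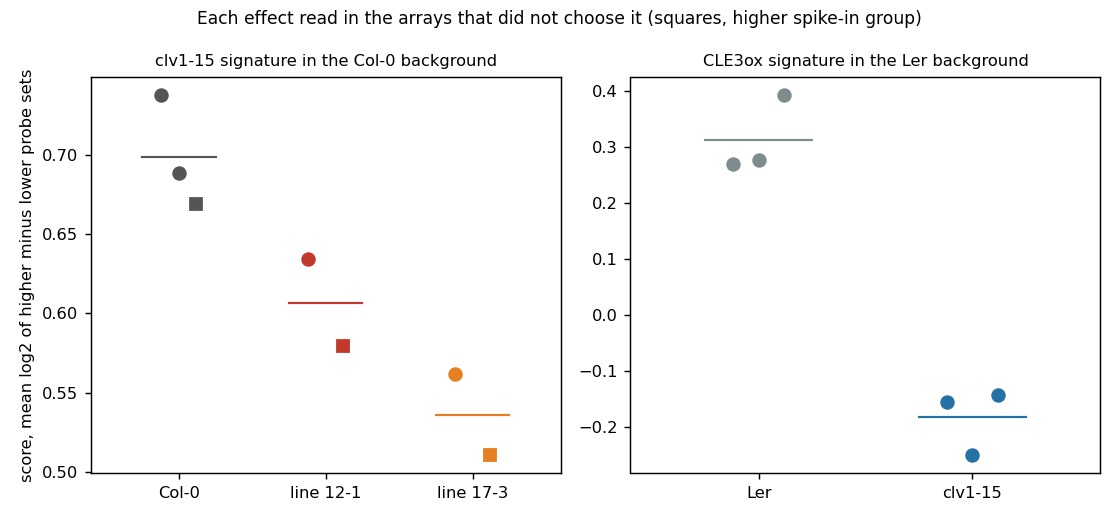
Signature scores (mean log2 of higher minus lower probe sets) of each array in the background that did not choose them, with bars at group means and squares for the higher spike-in group. All CLE3ox arrays lie below Col-0 in the left plot, and all clv1-15 arrays lie below Ler in the right plot; the axes do not start at 0.

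Some genes moved the same way in both. AT2G38870 read 2035, 2384 and 2514 in Col-0, 1133 and 967 in line 12-1, 1144 and 1105 in line 17-3, 819.7, 902 and 835 in Ler and 423, 406 and 389 in clv1-15. Both CLE3ox lines and clv1-15 stood well below their controls, with no overlap. The CLE3ox effect was -1.07 ± 0.08, the clv1-15 effect -1.04 ± 0.09, and the difference -0.03 ± 0.12, with a 95% interval of -0.29 to 0.23.

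AT5G38900, AT3G18250, CYP71B6 (a cytochrome P450) and AT5G38910 (a germin-like protein) were also lower in both. The 95% intervals of their differences were -0.23 to 0.51, -0.48 to 0.12, -0.28 to 0.10 and -0.97 to 0.06. The last of these leaves room for a CLE3ox fall that is almost 2-fold deeper. That difference, of AT5G38910, passed in 1 of 29 alternatives (limma adjusted p of 0.034 to 0.79). AT3G12900, from the iron deficiency and coumarin list, had a CLE3ox effect of -1.86 ± 0.30 that passed and a clv1-15 effect of -0.78 ± 0.32 that did not.

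AT4G33720, a CAP protein gene, was higher in both. It read 41.5, 39.2 and 49.7 in Col-0, 218 and 111 in line 12-1, 369.8 and 287 in line 17-3, 1703, 2109.7 and 3002 in Ler and 6944, 6243 and 5179 in clv1-15. No array overlapped on either side, and Ler stood far above every CLE3ox array. The effects were 2.03 ± 0.20 and 1.45 ± 0.21, and their difference, 0.58 ± 0.29, had a 95% interval of -0.03 to 1.19. That difference was 0.09 with line 12-1 alone and 1.07 with line 17-3 alone, where it passed (limma adjusted p = 0.041). AT1G19540 and AT2G38600 were the other 2 named genes higher in both, with intervals of -0.36 to 0.43 and -0.31 to 0.27.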

How the data were processed

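Whole-root RNA of 13 samples in 5 groups was hybridised to Affymetrix ATH1 arrays. The authors deposited intensity on a linear scale, made with MAS5 per the submitters' processing notes, with no version given. With 2% trimmed at each end, each array's mean was 500, so the authors' values are scaled per array. Labels call the samples biological replicates and do not say whether they came from separate cultures, so p-values measure the spread between these arrays.

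From these values log2(signal + 16) was computed. The 64 control probe sets and the dimmest 30% of the others, by their mean log2(signal + 16) over all arrays, were not tested. limma 3.58.1 in R 4.3.3 fitted all 5 groups (lmFit, eBayes with a trend), with Benjamini-Hochberg adjustment over 15922 probe sets. A gene passed at an adjusted p under 0.05. The number of arrays limits the precision. On simulated data with 100 probe sets changed per size, the difference of effects was recovered in 25% at a log2 of 0.5 and 78% at 1, and 7 of 15722 unchanged probe sets were called.

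Names come from the platform's table, matched to the TAIR10.1 annotation: 13513 probe sets had 1 gene, 503 several and 8730 none, and 13436 matched. The rule named the 10 highest and 10 lowest differences, the 5 rises and 5 falls with the smallest larger p shared by both effects (3 rises existed), 4 genes called in neither effect, and up to 4 members of each list. The comparisons, the gene lists and the rule were chosen with earlier results of these data known. The peroxidase, extensin, berberine bridge enzyme-like, germin-like and CAP lists (5) were set by locus after the name coverage had been seen, and plastid genes were taken by chromosome. Lists of phosphate starvation, endodermis, cytosolic ribosomal proteins, aquaporins and F-box proteins had no tested member (0). The lists of mitochondrial genes and GH3 enzymes matched no locus. The GH3 genes GH3.1, GH3.3 and WES1 were tested in the auxin list. Sequences are not used here.

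Alternatives were other pseudocounts, filters, scalings, variance priors, array weights, each line alone, a replicate block, spike-in groups and leaving out each array.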

Additional observations from a re-analysis of the deposited data

Results flagged for a closer look

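Of the genes named here, 5 had a CLE3ox effect that differed between the lines by the test of line 17-3 against line 12-1 (limma, adjusted over all 15922 probe sets, of which 42 or 0.264% passed). AT1G52700 was higher in line 17-3 by 1.44 on the log2 scale (adjusted p = 0.018), and its difference of effects was 1.82 with line 12-1 alone and 3.27 with line 17-3 alone. AT1G52560 was higher in line 17-3 by 1.18 (0.0056) and AT2G29500 by 0.96 (0.0097), both small heat shock protein genes. AT5G14650 was higher by 0.89 (0.018), with line 12-1 below Col-0 by -0.56 and line 17-3 above it by 0.32, neither of which passed alone. The extensin gene AT5G26080 was lower in line 17-3, with a difference between lines of -0.74 (0.039). Each line had 2 arrays, and the sign of the difference of effects was the same with either line in all 5. No cause was tested.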

How the results depend on the processing

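The difference of effects was recomputed under 29 alternatives. No signature gap and no named difference that had passed changed sign. Some named differences near 0 took both signs, as that of AT2G38870 did (-0.227 to 0.0993). The count of 1785 differences stayed within 1.5 times under 25 of the alternatives. It was 1038 with line 12-1 alone, 979 within the lower spike-in group, 569 with the CLE3ox effect from the higher spike-in group, and 1156 to 1750 when 1 array was left out, with 1156 without Col-0 replicate 1. These settings use fewer arrays. The CLE3ox count of 389 was 69 with line 12-1 alone, 66 and 54 in the lower and higher spike-in groups, and 206 to 397 with 1 array left out (236 without line 12-1 replicate 2, 228 without Col-0 replicate 1, 206 without Col-0 replicate 3). The clv1-15 count ranged from 1503 (without Ler replicate 1) to 2569 with 1 array left out. Line 17-3 against line 12-1 gave 2 and 1 calls in the lower and higher spike-in groups and 13 to 49 with 1 array left out (22 and 14 without line 12-1 replicates 1 and 2, 13 without line 17-3 replicate 2). With line 12-1 alone, the balance of opposite over same signs turned, to 19 against 23. The 135 opposite-sign probe sets were 84 with both lines as 1 group, 26 and 29 in the spike-in groups, and 73 to 141 with 1 array left out. The 41 of the same sign were 64 with spike-in group as a block, 17 and 11 within the groups, and 34 to 44 with 1 array left out.

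The CLE3ox signature gap of -0.496 in the Ler background was -0.404 with a pseudocount of 64, -0.409 with the lowest 50% left out, -0.885 with line 12-1 alone, -0.391 with the spike-in block, -1.02 and -0.942 in the spike-in groups, and -0.538 to -0.444 with 1 array left out. The clv1-15 signature gap stayed between -0.162 and -0.0909. Of the called differences 51.2% were higher, against 46.4% after quantile normalization (775 higher, 897 lower) and 41.7% after median centring (717 and 1003). The correlation of the effects lay between -0.171 and -0.105. Of the 20 genes named by size, 19 kept the call under every alternative in which they were tested, AT3G55790 being the exception. With the lowest 50% left out, 8 of those 19 were too dim to be tested. Causes were not tested.

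The main fit did not pair samples by replicate number. Deviations of same-numbered arrays correlated at 0.013, 0.19 and 0.1 for clv1-15 and Ler, and at 0.31 and 0.31 for the lines. With 2 arrays in each line, the values of 0.31 are not separate readings. In both lines replicate 1 lay in the lower and replicate 2 in the higher spike-in group. Between the lines and Col-0 the correlations were 0.24 and -0.18 (line 12-1) and 0.18 and -0.19 (line 17-3). With the replicate number as a block the difference gave 1617 calls, CLE3ox 341, clv1-15 2390, opposite signs 116 and same sign 45.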

Other observations

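Some genes passed the test of the difference though neither effect passed alone, which held for 332 of the 1785 probe sets. AT1G14730 had a difference of -0.44 ± 0.10 (limma adjusted p = 0.0087), from a CLE3ox effect of -0.25 and a clv1-15 effect of 0.19. AT5G44820 had one of -1.20 ± 0.27 (limma adjusted p = 0.0092), AT2G43550 one of 0.85 ± 0.19 (limma adjusted p = 0.009) and AT2G31790 one of 0.79 ± 0.18 (limma adjusted p = 0.0099). In all 4 the effects had opposite signs. AT1G14730 and AT5G44820 each lost the call in 1 alternative (adjusted p up to 0.13 and 0.062), and AT2G43550 and AT2G31790 each in 2 (up to 0.084 and 0.072), all with spike-in groups or line 12-1 alone.

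Of probe sets without a gene name, 12.6% of 6870 were called, against 10% of 8727 with a single gene. Among them, 254452_at read 13.3, 2.3 and 1.8 in clv1-15 and 522.5 to 575 in Ler, with 375 to 490.2 in the CLE3ox lines and 415 to 467 in Col-0. Its clv1-15 effect was -4.74 and its CLE3ox effect -0.03. Its clv1-15 signals lay below the pseudocount, and its difference was 3.12 to 6.73 over the alternatives. At the other end, 258890_at read 4754 to 5239 in clv1-15 and 845 to 1031 in Ler, against 333 to 511 in CLE3ox and 1132 to 1415 in Col-0, for a difference of -4.00 ± 0.14. Likewise 254644_at had a difference of -3.34 ± 0.31 and 256099_at one of -3.001 ± 0.23, each with CLE3ox below Col-0 and clv1-15 above Ler on all arrays. These probe sets were singled out after their values were seen. The share called was alike on the 5 nuclear chromosomes, 9.6% to 10.8% of single-gene probe sets, and 3.17% of 63 in the plastid.

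AT1G06830, a glutaredoxin gene from the nitrogen supply list, had a difference of 0.99 ± 0.24 (limma adjusted p = 0.018), with 451 and 579 in line 12-1, 349.5 and 257 in line 17-3 and 172, 217 and 258 in Col-0. Line 17-3 overlapped with Col-0 and line 12-1 did not. The call was lost with line 17-3 alone (difference 0.61, limma adjusted p = 0.16) and with the lines as 1 group. It was also lost in the higher spike-in setting and without Col-0 replicate 1 (adjusted p of 0.0073 to 0.21 over the alternatives). NRT2.5, a nitrate transporter of the same list, had -0.58 ± 0.24 (0.14) and passed in 1 of 28 alternatives. The germin-like gene AT1G18980 had -0.42 (0.04), with a CLE3ox effect of -0.46 that passed. Its difference lost the call in 16 of 29 alternatives, quantile normalization, the replicate block and the lines as 1 group among them (adjusted p of 0.025 to 0.19).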
